A study of Mus musculus with 12 samples.

Results

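The LPS response of CTCF-deficient BMDCs was compared, gene by gene, with that of wild-type BMDCs. BMDCs are dendritic cells grown from mouse bone marrow with GM-CSF, and RNA-seq was carried out on 4 groups of 3 replicates, 12 libraries in all. WT cells carried the Cre recombinase CreER and were left without LPS, and WTL cells were such cells given 100 ng/ml of LPS for 3 h once they had been cultured for 6 days. KO cells carried CreER;CTCF fl/fl, with Ctcf alleles flanked by loxP sites, and KOL cells were KO cells given the same LPS stimulation. All mice were of the strain C57BL/6, and CreER was activated with 4-OHT at the start of the culture. The sources do not state clearly whether WT cultures were given 4-OHT too. If they were not, 4-OHT and the loss of CTCF cannot be told apart. The methods call the 3 libraries of a group biological replicates, and no label says which mice or cultures they came from, so p-values measure the spread between these libraries. CD11c+ cells were selected on magnetic beads as BMDCs.

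For each gene, the question was whether the log2 fold change between KOL and KO differed from that between WTL and WT. This difference, (KOL against KO) minus (WTL against WT), is the interaction. It was positive where the LPS log2 fold change was higher in KO cells and negative where it was lower. Of 14008 genes tested, 2443 had an interaction (17.4%), by the quasi-likelihood test of edgeR with p-values adjusted after Benjamini and Hochberg and a threshold of 0.05. These genes, the members of the account below, were separated by form. In a stronger rise or stronger fall, the larger of the LPS responses was that of KO cells. In a weaker rise or weaker fall, the larger was that of WT cells. In a reversal, both responses passed the test with opposite signs. In the other forms the smaller response need not have passed, and could then have the opposite sign. Only the KO response passed in 312 stronger rises and 286 stronger falls. Only the WT response passed in 195 weaker rises and 166 weaker falls. Since the forms were assigned from the measured responses, those responses are given below as descriptions of each form.

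LPS, a component of the bacterial cell wall, is sensed by TLR4 with CD14 and MD-2. Its adaptors activate NF-kB and AP-1, which switch on cytokine and chemokine genes within hours, and IRF3, which switches on interferon beta. Interferon beta then acts through its receptor and STAT2 with IRF9 on the interferon-stimulated genes. CTCF binds insulator sites and, with cohesin, holds the bases of chromatin loops, which set the enhancers that a promoter can contact.

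Total expected counts, the estimated read numbers per gene summed over genes, were 12769773 to 16586334 per library. The share of counts from ribosomal RNA genes was 5.165% in WTL replicate 2 and at most 1.185% elsewhere. The spread between replicates beyond counting noise (biological coefficient of variation) was 4.92% in WT and 2.61% in KO, but 13.7% in WTL and 14.4% in KOL. WTL replicate 1 and KOL replicate 2 lay farthest from the other replicates of their groups, with a median absolute log2 difference over genes of 0.198 and 0.193. Summed normalized counts of 12 dendritic cell markers were 101482 to 253654 per library, those of 6 B cell markers were 9.44 to 34, and those of 7 T cell markers were 3.84 to 73.4. Those of 10 macrophage markers were 8482 to 26629.7 and those of 13 neutrophil markers 1906 to 4132. Without LPS, the neutrophil markers summed to 2919 to 3059.8 in WT and 1906 to 1970.2 in KO. Other sums differed too. The dendritic cell markers summed to 122401 to 128917 in WT and 101482 to 103290.2 in KO, and 4 eosinophil markers to 246 to 292 and 489 to 542. The macrophage markers summed to 16585 to 17973 in WT and 25673 to 26629.7 in KO. Without Csf1r the macrophage sum was lower in KO, as given below. Sums of different genes do not measure the shares of cell types. Normalized counts, used throughout, are counts scaled to a common effective library size. They are not corrected for gene length, so levels are compared between libraries and not between genes.

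Ctcf (ENSMUSG00000005698.15, chromosome 8 from 105636568 to 105682922 of mm10) was checked first. Its normalized count was 1051, 987 and 975 in WT, 886, 817 and 745 in WTL, 570, 562 and 516 in KO, and 563, 530 and 526 in KOL, for replicates 1, 2 and 3. The KO and KOL libraries did not overlap the WT and WTL libraries. The interaction at Ctcf itself was 0.28 (SE 0.11, adjusted p = 0.098) and did not pass the test.

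LPS responses differed between KO and WT cells in both directions. The LPS log2 fold change was higher in KO cells for 1218 genes (8.7% of those tested) and lower for 1225 genes (8.75%). By form, 804 genes had a stronger rise (5.74%), 442 a weaker rise (3.16%), 698 a stronger fall (4.98%), 293 a weaker fall (2.09%) and 201 a reversal (1.43%), and 5 genes had an interaction with neither response past the threshold. The balance between directions rested on the scaling of the libraries. Without WT replicate 1, 2 or 3 the higher and lower genes numbered 1280 and 684, 1168 and 688, and 1150 and 671. The weaker rises then numbered 238, 238 and 234, and the stronger falls 392, 394 and 382. In these fits edgeR's TMM scaling took KOL replicate 1 rather than KO replicate 3 as its reference library, and the median interaction of all genes moved from -0.02 to 0.05 on the log2 scale. With KO replicate 3 held as the reference, leaving out the same WT libraries gave 895 to 975 higher and 864 to 907 lower genes. The fits without a WT library quoted for gene lists below carry the same change of reference. Without KOL replicate 2, 1756 genes were higher and 2013 lower, with 1220 stronger rises and 1230 stronger falls. Without KO replicate 3 there were 454 stronger falls and 194 weaker falls. With TPM in place of counts (limma on log2(TPM + 1)), 61.1% of the called genes were higher in KO cells, compared with 49.9% in the main fit.

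**Figure D1:**
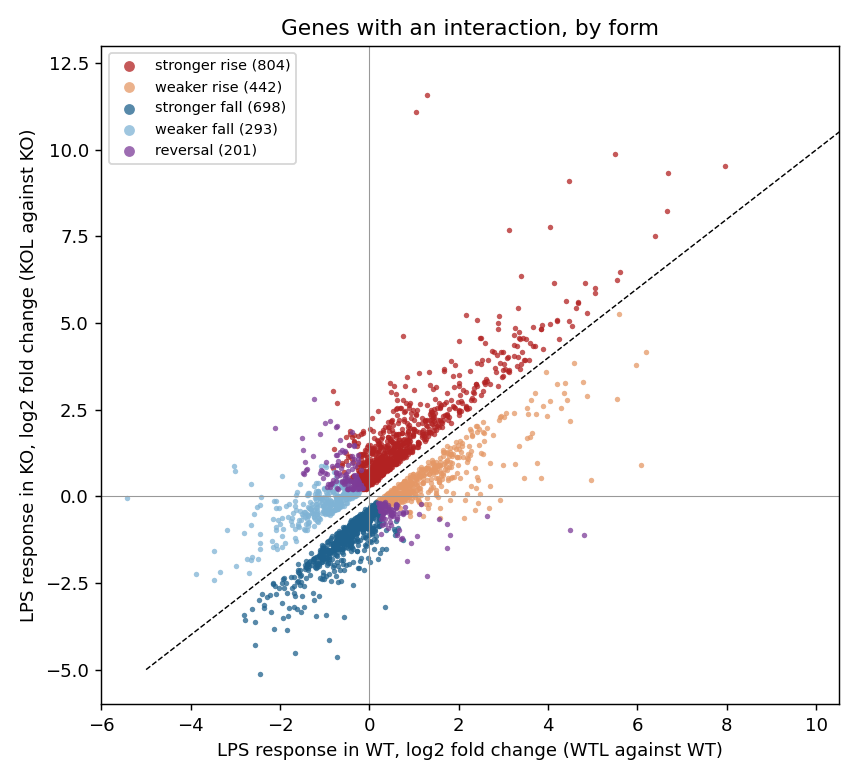
Each point is a gene with an interaction and a form. The x axis is the LPS log2 fold change in WT cells, the y axis that in KO cells, colours mark the 5 forms, and the dashed line marks equal responses. Points lie on both sides of the line, with 804 stronger rises and 698 stronger falls, and the responses of both genotypes exceed 2-fold in 11 of the 201 reversals.

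The levels from which the genes of each form started are given here side by side for comparisons that share libraries. The interaction is also the difference between KO and WT with LPS minus that without it. Choosing genes by the interaction therefore selects in part for these differences, which are a description and were not tested. The median LPS log2 fold change of the stronger rises was 0.48 in WT and 1.31 in KO. Their median difference between KO and WT was -0.42 without LPS and 0.26 with it. For the weaker rises, the median LPS log2 fold change was 1.09 in WT and 0.34 in KO, and the median difference between KO and WT was 0.26 without LPS and -0.32 with it. The stronger falls went from a median of -0.37 in WT to -1.06 in KO, and the weaker falls from -0.999 to -0.19. Their median differences between KO and WT were 0.28 and -0.13 without LPS, and -0.34 and 0.62 with it. Over all genes tested, without selection on the interaction, the corresponding medians lay between -0.04 and -0.01. The difference between the LPS responses was more than 2-fold for 235 stronger rises, 96 weaker rises, 110 stronger falls, 84 weaker falls and 107 reversals.

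A larger fold change need not be a larger gain in transcripts. On the scale of mean normalized counts, 123 of the 804 stronger rises gained fewer counts with LPS in KO cells than in WT cells, because a larger fold from a lower start can be a smaller gain. Likewise, 24 of the weaker rises gained more counts in KO cells. This second scale has no test of its own here and is given as a description.

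Of 27 tested cytokines, 13 had an interaction (48.1%), 10 with a higher and 3 with a lower LPS log2 fold change in KO cells (median interaction 0.63, compared with -0.02 over all genes). The reference for the share with an interaction, in this list and those below, is the 17.4% of all genes tested. The 10 were all stronger rises. With each library left out in turn, 8 to 12 cytokines were higher, and over the other settings apart from glmTreat, which tests against 1.5-fold, 5 to 13 were. Il23a (chromosome 10 from 128296139 to 128298752), the p19 subunit of IL-23, had normalized counts of 154, 119 and 111 in WT and 548, 536 and 629 in WTL. In KO it had 12.6, 12.5 and 16.7, and in KOL 585, 429 and 552. All KO libraries lay below all WT libraries, whereas KOL and WTL libraries overlapped. The interaction was 3.06 (SE 0.26, adjusted p = 5.07e-06), with LPS log2 fold changes of 2.16 in WT and 5.22 in KO.

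Il6 (chromosome 5 from 30013114 to 30019981), the cytokine of the acute-phase response, had 60.6, 80.5 and 70 normalized counts in WT and 16.1, 14.4 and 5.56 in KO. With LPS it had 21202, 16185 and 15793 in WTL and 8106, 8338 and 10628 in KOL. KO libraries were below WT libraries both without and with LPS, with no overlap. Its fold was larger in KO cells (interaction 1.56, SE 0.34, adjusted p = 0.00621), but the mean gain was 9012 normalized counts in KO and 17656 in WT. The call of Il6 was lost in the 3 fits on TPM (adjusted p = 0.0658 to 0.094). Tnf and Il12b, chosen after their values were seen, had the same arrangement. Tnf, the early inflammatory cytokine, had 2457, 2455 and 2463 in WT and 697, 721 and 663 in KO, and 28482, 25434 and 25282 in WTL and 11244, 13960 and 11802 in KOL. Again no KO library reached a WT library of the same treatment. Its interaction was 0.73 (SE 0.12). Il12b, the p40 subunit shared by IL-12 and IL-23, went from a mean of 113 to 9562 in WT and from 24.9 to 4546 in KO (interaction 1.11, SE 0.25), and its call was lost on log2(TPM + 1) without and with centring (adjusted p = 0.101 and 0.129). In all, 6 of the 10 cytokines with a stronger rise gained fewer counts in KO cells, namely Csf2, Ifnb1, Il12b, Il6, Tnf and Tnfsf9.

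Ifnb1, which encodes interferon beta, had no count in any KO library and 117, 91.3 and 145 normalized counts in KOL, at least 42.4-fold higher when each KO library is set at 3 counts. In WT it had 1.84, 3.35 and 4.32, and in WTL 136, 148 and 162. KOL and WTL libraries overlapped. Csf2, which encodes GM-CSF, also had no count in KO, and a mean of 25.6 in KOL, at least 9.2-fold higher. The interactions of both genes passed the test in the fit of all libraries (adjusted p = 0.022 and 0.046) and lost the call without single libraries, Ifnb1 without WT replicate 3 (adjusted p = 0.051), KO replicate 1 (0.052) or KO replicate 3 (0.0522), and Csf2 when any 1 of 8 libraries was left out (0.0676 to 0.0943). The fitted sizes against a group without counts depend on the prior count and are not given. Among cytokines without a detected interaction were Il27 (-0.09, SE 0.38), Il12a (-0.44, SE 0.97) and Tnfsf15 (-0.78, SE 0.49).

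Chemokine genes were the list with the largest share of stronger rises after the interferon-stimulated genes. Of 21 tested, 14 had an interaction (66.7%), 12 of them higher in KO cells, and leaving out single libraries gave 11 to 12. Cxcl1 (chromosome 5 from 90891241 to 90893115), a neutrophil attractant, had 625, 538 and 499 normalized counts in WT, 7048, 5084 and 5418 in WTL, 114, 113 and 108 in KO, and 8849, 8072 and 10706 in KOL. Without LPS every KO library was below every WT library, and with LPS every KOL library was above every WTL library. The interaction was 2.96 (SE 0.20, adjusted p = 6.19e-07). Of the 11 chemokines with a stronger rise, 8 also gained more counts in KO cells, and Ccl17, Cxcl2 and Cxcl3 gained fewer. The monocyte attractants Ccl2 and Ccl7 had interactions of 1.84 (SE 0.22) and 2.501 (SE 0.54). Ppbp, a platelet-type chemokine of the same family as Cxcl1, was a reversal, with LPS log2 fold changes of -1.50 in WT and 0.68 in KO. Ccl5 and Cxcl10 had a weaker rise, with interactions of -0.36 and -0.34. Neither was called without any one WT library, nor without KO replicate 1 or 2, KOL replicate 1 or 3 or WTL replicate 2, when 0 chemokines were lower. Ccl4 (-0.24, SE 0.11), Cxcl9 (-0.13, SE 0.55) and Cxcl11 (1.03, SE 0.53) did not pass.

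The interferon-stimulated genes held the most stronger rises. Of 42 tested, 26 had an interaction, 25 with a stronger rise and 1, Gbp3, with a weaker rise (median interaction 0.50). The range over fits without single libraries was 21 to 28 higher genes, and over the other settings 20 to 28. Oas3 (chromosome 5 from 120753098 to 120777661), which makes the activator of RNase L, had 436, 506 and 433 normalized counts in WT and 4660, 4814 and 4727 in WTL. In KO it had 122, 101 and 119 and in KOL 2713, 2834 and 2380. KO and KOL libraries lay below WT and WTL libraries, respectively, with no overlap, and the interaction was 1.16 (SE 0.13, adjusted p = 5.25e-05). The mean gain was 2528 normalized counts in KO and 4275 in WT. The same direction on the count scale held for 17 of the 25 genes with a stronger rise, and the median difference between KO and WT over these 25 genes was -0.84 without LPS and -0.20 with it. Xaf1 (interaction 1.20, SE 0.10), Oas2 (1.21, SE 0.16) and Oas1g (1.04, SE 0.18) were the other members of this list with the largest interactions. Oas genes resemble each other and their reads may have been divided between copies, so their single values are uncertain. The call of Oas2 was lost on log2(TPM + 1) (adjusted p = 0.0905). Ifit1 (0.13, SE 0.17) and Gbp5 (0.17, SE 0.13), both strongly induced in WT, had no detected interaction.

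**Figure D2:**
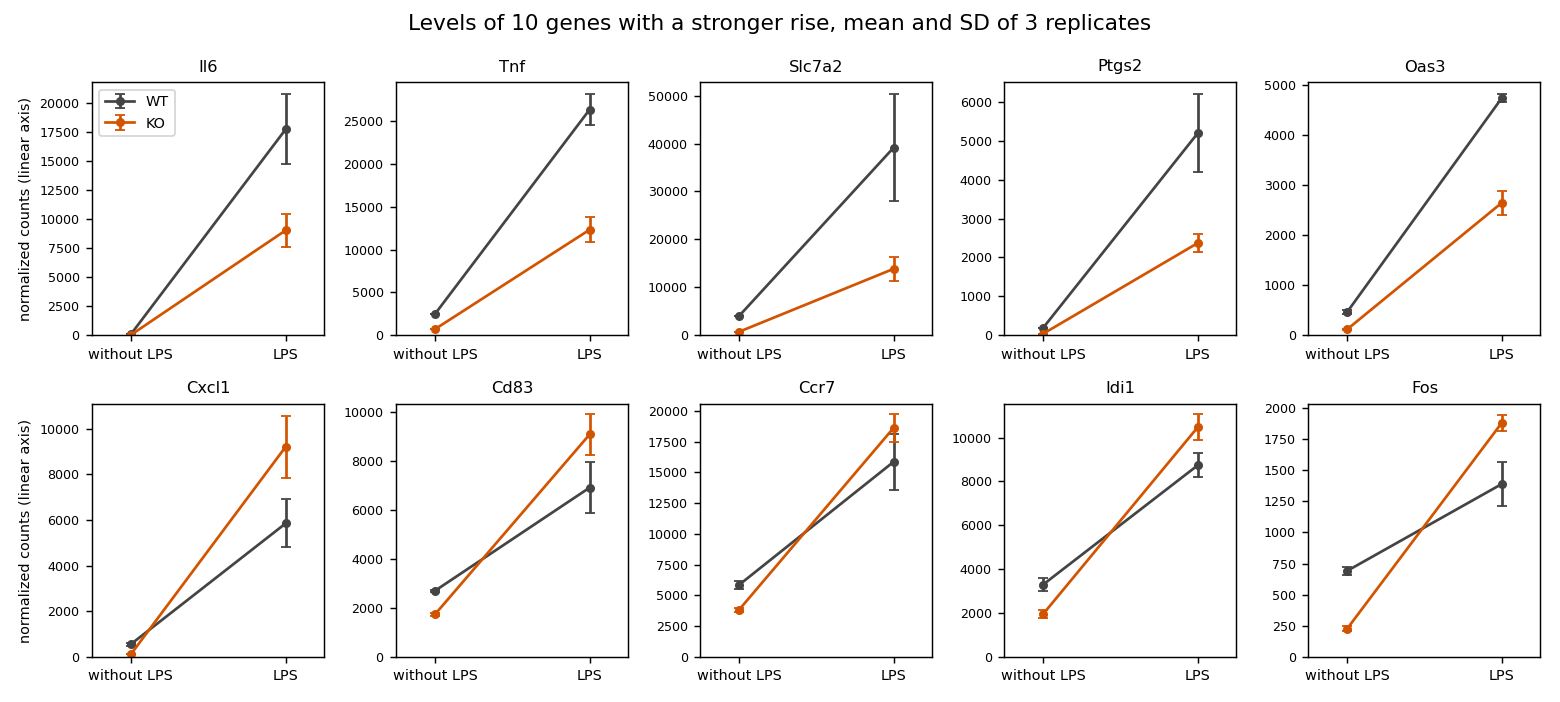
Each panel plots 1 gene with a stronger rise, without and with LPS on the x axis and normalized counts on a linear y axis. Points and bars are means and SDs of 3 replicates in WT (grey) and KO (orange). In the upper panels (Il6, Tnf, Slc7a2, Ptgs2, Oas3) the KO line ends below the WT line although its fold is larger, and in the lower panels (Cxcl1, Cd83, Ccr7, Idi1, Fos) it starts below and ends above.

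Promoter sequence was read for the genes above to show the motifs through which LPS and interferon act. Promoters were windows from 250 bases before to 50 bases after the start of a gene in RefSeq (GRCm38.p6), and 619 of the 804 stronger rises were matched to one by symbol. On both strands, GGANTTTCC was searched for NF-kB and GAAANNGAA for the interferon factors. Below, the match is in capitals and the stretch runs 5′ to 3′ on the strand of the gene, upstream of its start. The matches of Cxcl1, Il6, Ifnb1 and Icam1 are of the NF-kB motif, of which those before Icam1 belong to stronger rises and that of Icam1 to a weaker rise, and those of Oas3 and Tgtp1 are interferon matches of stronger rises.
Cxcl1, chr5:90891145-90891213, plus strand: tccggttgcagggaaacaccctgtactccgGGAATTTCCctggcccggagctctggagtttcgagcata
Il6, chr5:30013041-30013109, plus strand: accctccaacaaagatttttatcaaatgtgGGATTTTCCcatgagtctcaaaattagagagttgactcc
Ifnb1, chr4:88522871-88522939, minus strand: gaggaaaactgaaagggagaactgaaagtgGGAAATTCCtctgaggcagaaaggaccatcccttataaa
Icam1, chr9:21015757-21015825, plus strand: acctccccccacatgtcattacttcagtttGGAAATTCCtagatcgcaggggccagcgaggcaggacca
Oas3, chr5:120777690-120777758, minus strand: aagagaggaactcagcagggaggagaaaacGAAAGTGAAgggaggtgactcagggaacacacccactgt
Tgtp1, chr11:48992285-48992353, minus strand: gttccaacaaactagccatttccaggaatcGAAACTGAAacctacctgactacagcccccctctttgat

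The interferon motif was found in 11.3% of the promoters of the stronger rises, compared with 7.6% of the promoters of all tested genes and 8.57% of all 27025 promoters. In the weaker rises it was found in 8.7%, in the stronger falls in 6.81%, in the weaker falls in 5.49% and in the reversals in 8.75%. Of the 18 matched promoters among the 25 interferon-stimulated genes with a stronger rise, 11 held it (61.1%). The NF-kB motif was found in 2.58% of the stronger rises, 2.03% of the weaker rises, 0.737% of the stronger falls and 1.39% of all tested genes. Matches of different motifs were counted separately and may overlap in a promoter. TGANTCA, an AP-1 motif, was found in 8.24% of the stronger rises, 7.25% of the weaker rises and 5.21% of all tested genes. TGACGTCA, the cAMP response element, was found in 3.55% of the stronger rises and in 3.23% of all tested genes. These shares are descriptions of letters in a short window and were not tested. Promoters of Il6, Cxcl1 and Icam1 thus held the same kind of match although their responses had different forms.

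Early-response factors differed in both directions. Of 24 AP-1, ATF3 and EGR factors tested, 11 had an interaction, 8 with a stronger and 3 with a weaker rise (median interaction 0.18). The lower genes numbered 1 without WT replicate 2, and 1 to 4 over all fits without a library. Fos, a subunit of AP-1, had 718, 700 and 654 normalized counts in WT and 1200, 1409 and 1557 in WTL, compared with 204, 242 and 229.7 in KO and 1916, 1807 and 1918 in KOL. KO libraries started below WT libraries and ended above them. The interaction was 2.05 (SE 0.14, adjusted p = 6.05e-07). Crem, which makes a repressor of the cAMP response, had an interaction of 1.55 (SE 0.12), and Nr4a2, an orphan nuclear receptor, of 0.97 (SE 0.23), whose call was lost on log2(TPM + 1) (adjusted p = 0.0514). Jund, another AP-1 subunit, was among the weaker rises (-1.01, SE 0.25) and lost the call without WT replicate 3 (adjusted p = 0.0519). Its call was also lost on log2(TPM + 0.1) and log2(TPM + 1) (adjusted p = 0.0619 and 0.0555). The 6 largest stronger rises were taken among genes called in every fit without 1 library, with at least 100 normalized counts on average. Thbs1, the matrix protein thrombospondin, was 1 of these 6. Thbs1 had 878, 879 and 959 in WT, 1490, 1341 and 1340 in WTL, 216, 209 and 254 in KO, and 1359, 1798 and 1559 in KOL. Its KOL and WTL libraries overlapped. Ereg, which encodes the growth factor epiregulin, went from a mean of 59 to 437 in WT and from 7.46 to 242 in KO (interaction 2.12, SE 0.28), and its call was lost on log2(TPM + 1) (adjusted p = 0.254). Tgtp1, an interferon-induced GTPase, went from 23.9 to 2449 in WT and from 3.42 to 2296 in KO (interaction 2.67, SE 0.45), and its reads may be shared with the similar gene Tgtp2.

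Genes of dendritic cell maturation were divided. Of 17 costimulation and maturation genes tested, 8 had a stronger rise and 2 a weaker rise. Marcksl1 (interaction 1.60, SE 0.20), Tnfsf9 (1.46, SE 0.30), which encodes the ligand of 4-1BB, Cd83 (1.03, SE 0.14) and the lymph-node homing receptor Ccr7 (0.85, SE 0.13) rose more in KO cells. Cd83 had 2644, 2700 and 2731 normalized counts in WT and 6070, 6552 and 8082 in WTL, and 1798, 1727 and 1664 in KO and 9541, 8120 and 9554 in KOL. Every KOL library exceeded every WTL library, although every KO library was below every WT library. Icam1, the ligand of the integrin LFA-1, had a weaker rise, with 4778, 5084 and 4952 in WT, 17697, 17735 and 16874 in WTL, 4578, 4484 and 4559 in KO, and 8088, 9258 and 7389 in KOL. KO libraries were below WT libraries before LPS by a small margin and by more than the spread after it (interaction -0.96, SE 0.11, adjusted p = 4.65e-05). Cd80 (0.27, SE 0.10), Cd70 (-0.28, SE 0.66) and Fscn1 (0.02, SE 0.26), which makes an actin-bundling protein, did not pass. Of 13 MHC class II genes, H2-Aa, H2-Eb1, H2-Oa and H2-Ob had a stronger rise, and March1, the ubiquitin ligase that removes MHC class II from the surface, had a stronger fall (-1.47, SE 0.19).

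Among the weaker rises were enzymes that make inflammatory mediators. Ptges (chromosome 2 from 30889471 to 30929863), the synthase that completes prostaglandin E2, had 194, 199.6 and 174 normalized counts in WT and 188, 191 and 169.5 in KO. With LPS it had 2290, 2338 and 2237 in WTL and 575, 621 and 594 in KOL. The groups overlapped without LPS and were separate with it. The interaction was -1.89 (SE 0.11, adjusted p = 1.93e-07), from LPS log2 fold changes of 3.60 in WT and 1.71 in KO. Nos2, the inducible nitric oxide synthase, had 15.6, 27.7 and 22.5 in WT and 25.1, 13.4 and 25 in KO, and 1694, 1675 and 1501 in WTL and 413, 407 and 343 in KOL. Its groups also overlapped only without LPS (interaction -2.02, SE 0.29). Ido2, an enzyme of tryptophan breakdown, had a mean of 8.07 in WT, 118 in WTL, 49.8 in KO and 72.6 in KOL (interaction -3.29, SE 0.28). In the same list of 12 genes Acod1, which makes itaconate, had nearly equal responses (interaction -0.01, SE 0.15), and the arginine transporter gene Slc7a2 had a stronger rise from a lower start (1.03, SE 0.23). Ptgs2, which acts a step before Ptges, also had a stronger rise (1.32, SE 0.21), with a mean of 184 in WT, 5200.3 in WTL, 33.4 in KO and 2371 in KOL. The call of Ptgs2 was lost on log2(TPM + 1) (adjusted p = 0.123).

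Regulators of the response moved in both directions. Of 23 NF-kB subunits and inhibitors tested, 10 had an interaction (43.5%). Of these, 6 had a weaker rise (Ikbke, Bcl3, Tnip1, Birc3, Nfkb2 and Nfkbie) and 4 a stronger rise (Nfkbid, Rel, Birc2 and Nfkbiz). This division changed with the libraries left out. Without any one WT library, which also changed the TMM reference library, 2 or 3 genes were lower. Without KO replicate 3 there were 0 higher and 3 lower. Ikbke, a kinase upstream of IRF3, had an interaction of -0.89 (SE 0.11), and the A20 partner Tnip1 of -0.60 (SE 0.10). Tnfaip3, which encodes A20, and Nfkbia, which encodes the main inhibitor of NF-kB, had interactions of 0.12 (SE 0.09) and -0.24 (SE 0.15) and did not pass. Of 22 feedback genes of the SOCS, DUSP and mRNA decay families, 11 had an interaction, 8 higher and 3 lower. Socs3, a feedback inhibitor of STAT3 signalling, had 335, 309 and 322 normalized counts in WT, 6385, 6957 and 6726 in WTL, 435, 408 and 388 in KO, and 3920, 3929 and 4019 in KOL. KO libraries were above WT libraries before LPS and below them after it. Its interaction was -1.11 (SE 0.10, adjusted p = 5.99e-06). Of 29 genes of Toll-like receptor signalling, 7 had an interaction (24.1%, compared with 17.4% of all genes tested). Among them were Cd14 (0.75, SE 0.10) and Ticam2 (-0.89, SE 0.18), an adaptor of TLR4. The 5 that were lower became 1 without any one WT library, with the TMM reference changed too, and 10 without KOL replicate 2.

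Il1b, a cytokine of the inflammasome pathway chosen after its values were seen, had a weaker rise, with 1587, 1588 and 1574 in WT, 50147, 41274 and 39482 in WTL, 3983, 3912 and 3741 in KO, and 33401, 41067 and 41165 in KOL. KO libraries were above WT libraries without LPS, and KOL and WTL libraries overlapped. The interaction was -1.47 (SE 0.14). Irf8, a transcription factor of dendritic cells, had 1544, 1583 and 1599 in WT and 1437, 1431 and 1401 in KO, and 3606, 4584 and 5032 in WTL and 2331, 1898 and 1981 in KOL. The WTL libraries were all higher than the KOL libraries. Its interaction was -0.94 (SE 0.15, adjusted p = 0.000748). Itgb8, an integrin subunit that activates TGF-beta, went from a mean of 39.3 to 1153 in WT and from 111 to 831 in KO (interaction -1.97, SE 0.20).

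Under the limits on calls and counts given for Thbs1, the 6 largest weaker rises were Lhx2, Clstn1, Sh3pxd2a, Cd69, Gprc5c and Bahcc1. For Clstn1 and Sh3pxd2a all KO libraries without LPS were above all WTL libraries, and for Gprc5c these groups overlapped. Clstn1 had 55.1, 52.8 and 49.3 in WT, 235, 283 and 329 in WTL, 710, 688 and 714 in KO, and 630, 631 and 598 in KOL. KO and KOL libraries were all above the WTL libraries, and the KO response did not pass (log2 fold change -0.18, adjusted p = 0.0798). Cd69, an early activation receptor, had 397, 417 and 433 in WT, 4287, 3790 and 3776 in WTL, 7043, 6525 and 6924 in KO, and 12343, 13247 and 13941 in KOL. Its fold was weaker in KO cells (interaction -2.30, SE 0.11), but its mean gain of 6346 normalized counts exceeded the gain of 3536 in WT. Lhx2, a homeobox factor at or under 3 counts in each WT library, reached a mean of 67 in WTL, at least 25.5-fold higher, and went from 239 to 449 in KO. Bahcc1 was the exception, with a mean of 60 in WT, 314 in WTL, 36.1 in KO and 43.2 in KOL.

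**Figure D3:**
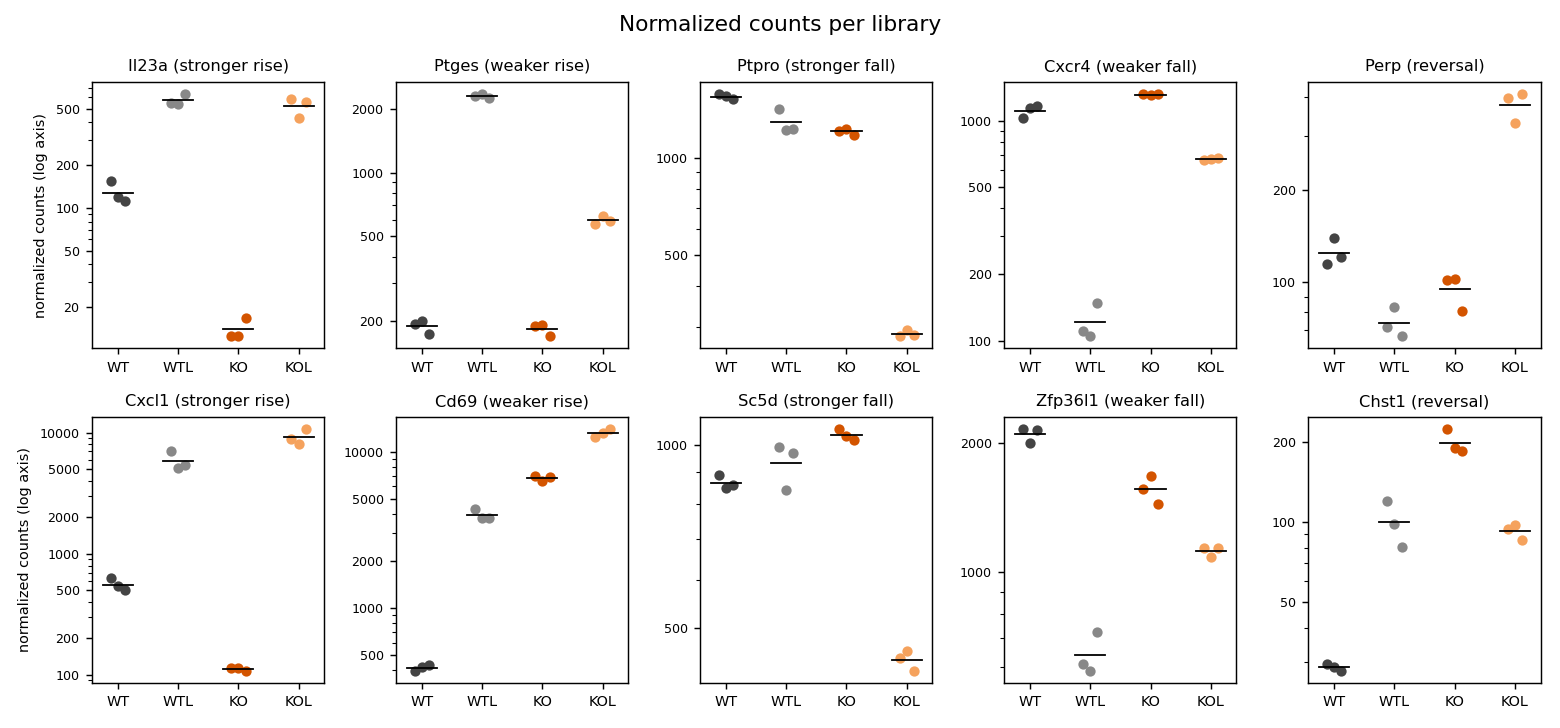
Each panel shows 1 gene, with the 4 groups on the x axis and normalized counts on a log y axis. Points are the 3 libraries of a group and lines their means. Reading by column, Il23a and Cxcl1 start low and rise far in KO, Ptges averages 597 in KOL and 2288 in WTL, Cd69 starts high in KO, Ptpro and Sc5d are lowest in KOL, Cxcr4 and Zfp36l1 stay higher in KOL than in WTL, and Perp and Chst1 move in opposite directions.

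Stronger falls included genes of cell division, lipid synthesis and the myeloid lineage. Of 30 genes of G2 and mitosis, 13 had an interaction, 12 of them a stronger fall (median interaction -0.40). Without WT replicates 1, 2 and 3 there were 6, 5 and 5 lower genes of this list, without KO replicates 1 and 3 there were 7 each, and without KOL replicates 1 and 3 there were 6 each. The other settings gave 4 to 12. Aurkb, the kinase of the chromosomal passenger complex, had 426, 442 and 461 normalized counts in WT, 225, 253 and 231 in WTL, 276, 269 and 293 in KO, and 102, 85.4 and 73.7 in KOL. KO libraries were below WT libraries in both treatments, with no overlap. Its interaction was -0.78 (SE 0.14, adjusted p = 0.00212), whereas the mean change was -192 normalized counts in KO and -206 in WT. Cenpe, a mitotic motor, had an interaction of -0.996 (SE 0.24), and Birc5, which makes survivin of the same complex as Aurkb, was a weaker fall (0.67, SE 0.12). Of 30 S phase genes, 7 had a stronger fall and 2 a stronger rise, including Cdc45 (-0.95, SE 0.20) and Mcm2 (-0.60, SE 0.10) of the replicative helicase. Without WT replicate 1 or 3 the lower S phase genes numbered 3, and without WT replicate 2, WTL replicate 2 or KO replicate 3 they numbered 4. In bulk RNA, fewer dividing cells and less RNA per cell cannot be told apart.

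Of 24 sterol synthesis genes, 11 had an interaction (45.8%) in a divided pattern. Sc5d, which acts late in cholesterol synthesis, had 891, 849.5 and 859 in WT, 990, 843 and 968 in WTL, 1060, 1031 and 1016 in KO, and 447, 460 and 426 in KOL. WT and WTL libraries overlapped, and KOL libraries were below all others (interaction -1.33, SE 0.10, adjusted p = 1.97e-06). Dhcr7 (-0.99, SE 0.18), which acts in the same pathway, was also a stronger fall, whose call was lost on log2(TPM + 1) (adjusted p = 0.154). Over the other settings apart from glmTreat, 2 to 8 sterol genes were lower, compared with 7 in the main fit. The isomerase Idi1, which acts early in it, had a stronger rise (1.02, SE 0.12), and Srebf2 and Insig1, which control the pathway, were reversals with interactions of -0.51 and -0.42.

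Ptpro, a receptor tyrosine phosphatase, was among the 6 largest stronger falls under the limits on calls and counts given for Thbs1. It had 1568, 1552 and 1514 in WT, 1412, 1216 and 1230 in WTL, 1210, 1228 and 1176 in KO, and 281, 294 and 283 in KOL. The KOL libraries stood apart from all others. Its LPS log2 fold change was -0.26 in WT and -2.08 in KO (interaction -1.81, SE 0.10, adjusted p = 1.93e-07). Csf1r, the receptor of M-CSF, had 13491, 14631 and 14577 in WT, 7087, 6058 and 5670 in WTL, 23367, 23258 and 24103 in KO, and 4974, 7197 and 5061 in KOL. KO libraries exceeded WT libraries without LPS, and KOL and WTL libraries overlapped (interaction -0.85, SE 0.17). Csf1r is also a macrophage marker. The summed counts of the other 9 macrophage markers were 3094 to 3343 in WT, 2416 to 2527 in KO, 3415 to 4208 in WTL and 3508 to 4040.1 in KOL, so that they were lower in KO than in WT, and higher in KOL than in KO. Itgal, the alpha chain of LFA-1, had LPS log2 fold changes of 0.11 in WT and -0.85 in KO (interaction -0.96, SE 0.21), and Itgax, which encodes CD11c, of -0.10 and -0.73 (-0.62, SE 0.12). In the list of 19 integrins and adhesion genes, 10 of 13 interactions were negative, 5 as weaker rises and 5 as stronger falls. Without any one WT or KO library, WTL replicate 2 or KOL replicate 1 or 3, the negative interactions numbered 5 or 6. Of 25 genes of growth factor receptors and JAK-STAT signalling, 12 had an interaction (48.0%). Flt3 (1.42, SE 0.29) and Stat4 (1.46, SE 0.14) were stronger rises, and Csf3r (-0.74) and Csf2ra (-0.65) stronger falls. Under the same limits as for Ptpro, the sulfotransferase gene Chst3 had the largest interaction among stronger falls. Its mean was 26.8 in WT, 34 in WTL, 1515 in KO and 165 in KOL. Srgap3 (-1.999, SE 0.25), a regulator of the cytoskeleton, and Galnt9 (-1.76, SE 0.21), a glycosyltransferase, were also among the 6, with the unnamed genes 2010016I18Rik and I830077J02Rik.

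Weaker falls included receptors of cell traffic and regulators of mRNA decay and the cell cycle. Cxcr4 (chromosome 1 from 128588199 to 128592293), the receptor of CXCL12 that holds cells in the bone marrow, had 1030, 1138 and 1163 normalized counts in WT and 111, 105 and 149 in WTL. In KO it had 1318, 1310 and 1318 and in KOL 661, 672 and 676. KOL libraries were all several times above WTL libraries. The interaction was 2.21 (SE 0.14, adjusted p = 4.05e-07), from LPS log2 fold changes of -3.19 in WT and -0.97 in KO. Zfp36l1, which makes a protein of mRNA decay, had 2160, 2001 and 2149 in WT, 610, 588 and 724 in WTL, 1567, 1681 and 1445 in KO, and 1140, 1083 and 1137 in KOL. KO libraries were below WT libraries without LPS and above them with it (interaction 1.23, SE 0.12). Cx3cr1, the fractalkine receptor, was low in KO from the start. It had 364, 364 and 321 in WT, 83.6, 80.2 and 81.9 in WTL, 49.3, 45.1 and 63.9 in KO, and 43, 53.8 and 49.1 in KOL. KO and KOL libraries overlapped, and all lay below the WTL libraries (interaction 1.97, SE 0.20). The 6 largest weaker falls were taken under the limits on calls and counts given for Thbs1. Besides Cxcr4 and Cx3cr1 they were Gpr146 (1.84, SE 0.22), the cell cycle kinase Wee1 (1.54, SE 0.20), Cd300lb (1.62, SE 0.20) and Trim7 (1.36, SE 0.18). Reads of Cd300lb may have been divided with other genes of its family. Ddit4 and Sesn2, inhibitors of mTORC1, had interactions of 1.18 (SE 0.15) and 0.95 (SE 0.17).

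Reversals joined small responses of opposite sign into larger interactions. The median absolute interaction was 1.02, compared with 0.62 to 0.74 in the other forms. In the interaction, 53.2% of the reversals exceeded 2-fold, compared with 15.8% to 29.2% of the other forms. Responses of opposite sign add up in the interaction, so the choice of this form itself selects for larger values. Of the 201, 118 fell in WT and rose in KO, 83 rose in WT and fell in KO, and the responses of both genotypes exceeded 2-fold in 11. Perp (chromosome 10 from 18845020 to 18857073), a p53 target of cell adhesion and death, had 115, 139 and 121 normalized counts in WT, 71.5, 83.4 and 67 in WTL, 102, 103 and 80.6 in KO, and 398, 329 and 408 in KOL. WTL libraries were below all WT libraries, and KOL libraries above all others. Its interaction was 2.75 (SE 0.19, adjusted p = 9e-07). Phlda3, another p53 target, which inhibits AKT, had 333, 382 and 355 in WT, 87.7, 133 and 170 in WTL, 211, 201 and 211 in KO, and 470, 297 and 467 in KOL. KO libraries were all below the WT libraries before LPS and all KOL libraries above the WTL libraries after it (interaction 2.42, SE 0.27). Acp6, a lysophosphatidic acid phosphatase, had means of 126 in WT, 80.1 in WTL, 135 in KO and 419.5 in KOL (interaction 2.28, SE 0.15).

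Under the limits on calls and counts given for Thbs1, the largest reversals in the other direction were Pdgfrb, Chst1 and Ocstamp. Chst1, a sulfotransferase, had 29.4, 28.5 and 27.7 in WT, 120, 98.6 and 80.8 in WTL, 223, 189 and 184 in KO, and 94.6, 97.1 and 85.4 in KOL. WTL and KOL libraries overlapped, and the KO libraries were above the WT libraries without LPS (interaction -2.90, SE 0.22, adjusted p = 1.86e-06). Pdgfrb, the PDGF receptor beta and a stromal marker, had a mean of 28.1 in WT, 175 in WTL, 249.8 in KO and 169.8 in KOL (interaction -3.18, SE 0.28). It was the only one of 6 stromal markers to pass the filter on low counts. The sum of the other 5 was 0 to 1.68 in WT, 10.8 to 121 in WTL, 0.897 to 8.34 in KO and 4.3 to 16.4 in KOL. Ocstamp, which takes part in cell fusion, had a mean of 121 in WT, 231 in WTL, 59.6 in KO and 23.5 in KOL (interaction -2.27, SE 0.24). Lipid genes were among the small reversals: Cd36, a fatty acid transporter, had LPS log2 fold changes of -0.50 and 0.55 in WT and KO, and Plin2, a lipid droplet protein, of -0.20 and 0.76. Kit, the receptor of stem cell factor, had -0.46 and 1.48 (interaction 1.94, SE 0.23).

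**Figure D4:**
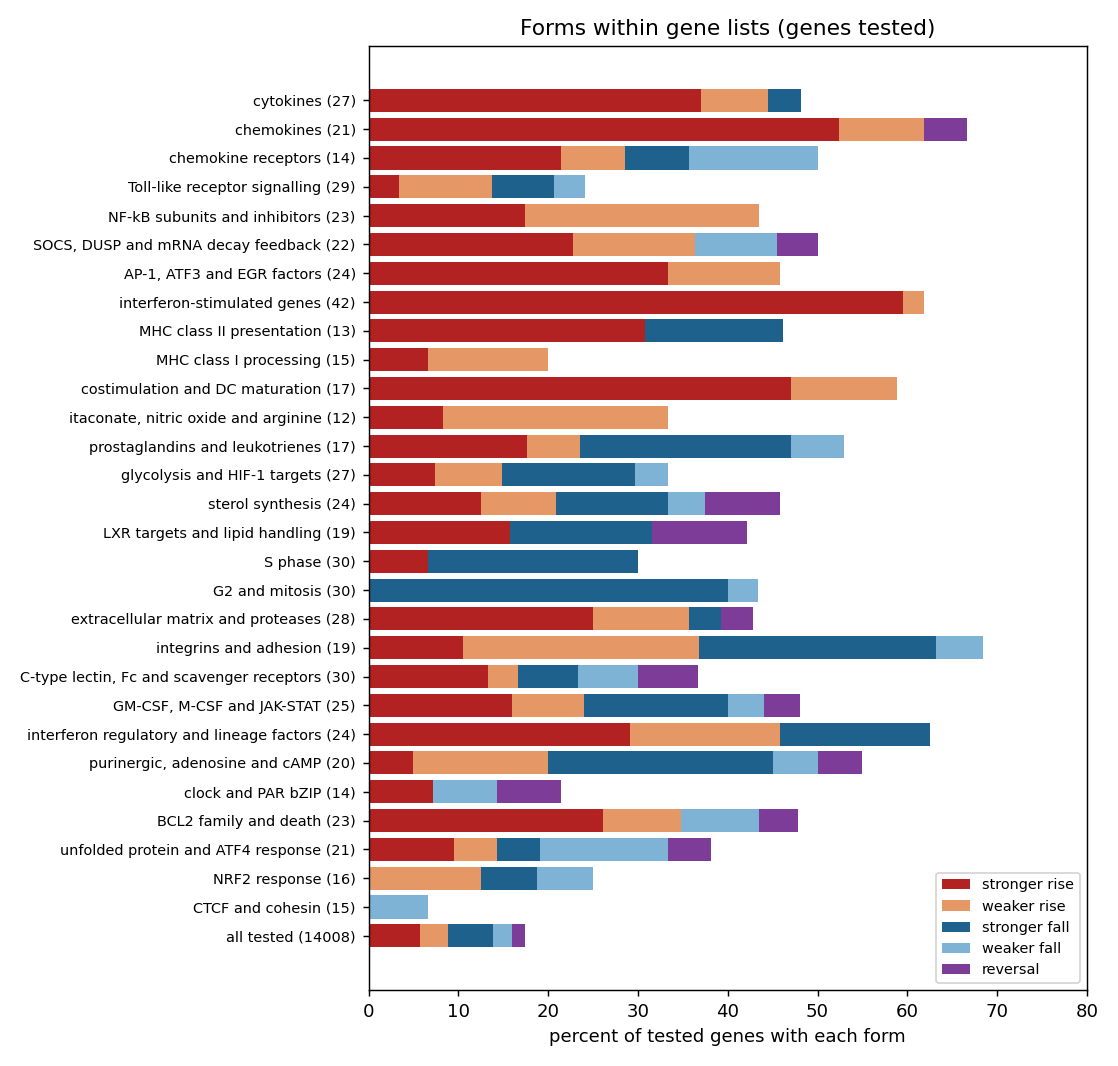
Bars show, for each gene list with its number of tested genes, the percent of tested genes with each of the 5 forms, and the lowest bar all 14008 genes tested. Stronger rises (red) take the largest part in interferon-stimulated genes, chemokines and costimulation genes, and stronger falls (dark blue) in G2 and mitosis.

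Lists outside the inflammatory response held both directions. Of 24 interferon regulatory and lineage factors, 15 had an interaction, 7 higher, such as Nfil3 (1.45, SE 0.17), and 8 lower, such as Maf (-1.14, SE 0.21). The 7 became 4 without KO replicate 1, KO replicate 3 or KOL replicate 1. Of 23 genes of the BCL2 family and cell death, 9 of 11 interactions were positive, including those of the BH3-only genes Bbc3 (0.66, SE 0.15) and Pmaip1 (0.91, SE 0.11). The other settings apart from glmTreat gave 5 to 11 positive interactions. The call of Bbc3 was lost on log2(TPM + 0.1) (adjusted p = 0.0508). Of 20 purinergic, adenosine and cAMP genes, 8 were lower and 3 higher, and P2ry12, an ADP receptor, had an interaction of -1.36 (SE 0.31). Without WT replicates 1, 2 and 3 the lower genes numbered 3, 4 and 5, without KO replicates 1 and 3 they numbered 5 and 4, and without KOL replicates 1 and 3 they numbered 4 and 5. Of 15 CTCF and cohesin genes, 1 had an interaction, Smc3 (0.47, SE 0.13), which lost the call without WTL replicate 2 or KO replicate 1 or 2 (adjusted p = 0.0571 to 0.0677). That share was 6.67%, compared with 17.4% of all genes, and the difference was not tested. Leaving out single libraries gave 0 to 3 higher and 0 to 4 lower genes of this list.

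The share of genes with the same form was compared between neighbours and all tested genes. Of the nearest tested neighbours of the stronger rises, on either side, 15.5% were stronger rises too, compared with 5.74% of all tested genes. For the stronger falls this share was 11.8% against 4.99%, for the weaker rises 6.58% against 3.16%, for the weaker falls 3.75% against 2.09%, and for the reversals 2.99% against 1.44%. There were 16 runs of at least 3 adjacent tested genes with a stronger rise and 9 with a stronger fall, 1 each of weaker rises and reversals, and none of weaker falls. Adjacent genes include overlapping genes and gene families, and this share was not tested.

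A run on chromosome 5 from 90772435 to 90905938 held the chemokine genes Pf4, Cxcl3, Cxcl1 and Cxcl2, with interactions of 1.29, 0.86, 2.96 and 2.08. With LPS, the members parted: the log2 difference between KOL and WTL was -2.45 for Cxcl3, -0.53 for Cxcl2, 0.66 for Cxcl1 and 0.33 for Pf4. A run on chromosome 10 from 128232065 to 128298752 held Timeless, Apof, Stat2 and Il23a, with interactions of 0.40, 2.81, 0.76 and 3.06. The interferon factor gene Stat2 and the cytokine gene Il23a thus shared a form in a run of 67 kb. Ccl2 and Ccl7 on chromosome 11 formed a run with the distant Myo1d (0.92), and Oas1b, Oas1g and Oas1a, and Ifit3, Ifit1bl1 and Ifit3b, formed runs of similar copies. Among stronger falls, Chst3, Psap, Cdh23 and Vsir were adjacent on chromosome 10 from 60181532 to 60696490, with interactions of -3.55, -0.52, -1.13 and -0.36, of which those of Cdh23 and Vsir did not keep the call in every fit without 1 library. The run of reversals on chromosome 5 held the paired receptor genes Pilra, Pilrb1 and Pilrb2, with interactions of -0.96, -1.05 and -0.74. Pilra, an inhibitory receptor, had 1940, 1870 and 1973 in WT, 3013, 2701 and 2389 in WTL, 2672, 2657 and 2809 in KO, and 1746, 2214 and 1906 in KOL. KO exceeded WT without LPS and WTL exceeded KOL with it, with no overlap. The call of Pilra was lost in the 3 fits on TPM (adjusted p = 0.105 to 0.128).

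**Figure D5:**
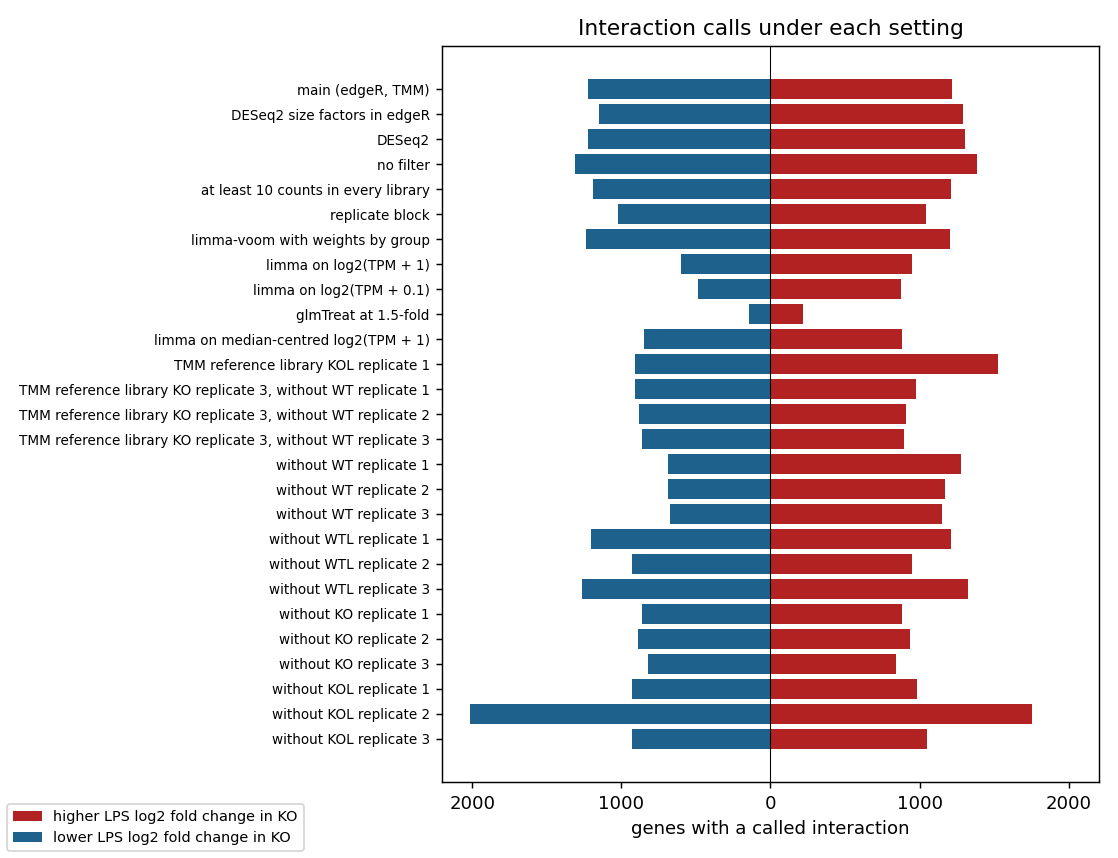
Bars count the genes with a called interaction under each way of processing, with those higher in KO cells to the right (red) and those lower to the left (blue) on an x axis in genes. The main fit gives 1218 and 1225, leaving out KOL replicate 2 gives the most (1756 and 2013), and the blue bars are shorter without any WT library and for TPM.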

How the data were processed

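The authors aligned reads to mm10 with STAR (2.5.1 per the labels) and quantified genes with RSEM. They deposited an expected count, an estimate that need not be whole, and a TPM for each gene and library. The sources name both poly(A) selection with a stranded kit and depletion of ribosomal RNA, and do not say whether counting used strand, so values of overlapping and antisense genes and of close copies are uncertain.

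Expected counts were rounded, filtered with filterByExpr by group (14008 genes left), scaled with TMM and tested with edgeR 4.0.16 (R 4.3.3, glmQLFit and glmQLFTest) in 1 fit of 12 libraries without covariates, with Benjamini-Hochberg adjustment and a threshold of 0.05. The fit was tested on simulated data before use. Alternatives were DESeq2 1.42.0 and its size factors, other filters, limma 3.58.1 on weighted counts and on TPM, glmTreat, a replicate block and leaving out each library.

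Genes named by rule were Ctcf, the 6 largest interactions per form (called in all fits without 1 library, at least 100 normalized counts on average), and per list the 4 largest called and the 3 most LPS-responsive uncalled genes, besides runs of neighbours. Further list members were named outside this rule, such as Birc5, Itgax, Srebf2, Insig1, Csf3r, Csf2ra, Ccl5, Cxcl10 and Gbp3. These are left out of the count of named genes that lost a call. The members and lists were chosen with earlier results of these data known. A gene at or under 3 counts in every library of a group gets a fold as a lower bound, which covers counting error only. A few genes are not reported here.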

Additional observations from a re-analysis of the deposited data

Results flagged for a closer look

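The LPS effect differed between the genotypes by the interaction test itself in 1218 genes with a higher and 1225 genes with a lower LPS log2 fold change in KO cells. In reversals both genotypes responded past the threshold in opposite directions. The 6 reversals with the largest interactions were taken under the limits on calls and counts given for Thbs1. Of these, Pdgfrb (-3.18), Chst1 (-2.90) and Ocstamp (-2.27) rose with LPS in WT and fell in KO. Perp (2.75), Phlda3 (2.42) and Acp6 (2.28) fell in WT and rose in KO, on the log2 scale. Each kept its sign and its call with each library left out. Keeping the call was a condition of the choice, so these fits add no separate evidence for the 6 genes. Groups of 3 libraries are too small for a test of single outlying libraries.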

How the results depend on the processing

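Settings that change how the libraries are scaled moved the balance of directions. With KOL replicate 1 as the TMM reference, chosen after seeing the data, 1527 genes were higher and 911 lower (62.6% higher), and the median interaction of all genes was 0.05 instead of -0.02. On log2(TPM + 1), 949 were higher and 603 lower, with 416 stronger rises, 145 weaker rises and 417 stronger falls. On log2(TPM + 0.1), 876 were higher and 487 lower (64.3% higher), with 417, 116 and 329. With log2(TPM + 1) centred on its median, also chosen after seeing the data, 879 were higher and 846 lower, with 278 weaker rises. With glmTreat against 1.5-fold, 216 were higher and 143 lower, with 128 stronger rises, 58 weaker rises, 50 stronger falls, 30 weaker falls and 93 reversals. Counting only LPS responses over 2-fold left 243 weaker rises, 377 stronger falls, 154 weaker falls and 11 reversals, and 1121 interactions with no such response.

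Without each library in turn, higher genes numbered 841 to 1756, lower genes 671 to 2013, stronger rises 554 to 1220, weaker rises 234 to 627, stronger falls 382 to 1230, weaker falls 194 to 384, reversals 154 to 288 and interactions with no called response 1 to 20. The last count was 8 with DESeq2 size factors, 22 with DESeq2, 20 without a filter, 3 with at least 10 counts in every library, 1 with the replicate block and in each fit with KO replicate 3 held as the reference, 2 with centred TPM, and 0 with either TPM pseudocount or glmTreat. The cause of the other shifts was not tested.

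The replicate block gave 1041 higher and 1022 lower genes. Deviations of libraries with the same number correlated from -0.654 to 0.346. With 3 libraries per group these values cannot decide whether the numbers pair the samples, and no label says so. Of 157 named genes with an interaction, 29 lost the call in at least 1 fit without a library and 42 under at least 1 other alternative, and 0 reversed. Il10, without a call in the main fit (1.58), was called with the opposite sign in 2 fits on TPM. Its interaction was -0.799 on log2(TPM + 1) (adjusted p = 0.00807) and -0.862 on its centred form (adjusted p = 0.00277). Without LPS its mean normalized count was 2.89 in WT and 0.32 in KO. Depths of 12769773 to 16586334 counts limit statements on genes of few counts, such as Ifnb1, Csf2 and Lhx2.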

Other observations

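Targets of p53 with an interaction mostly had a higher LPS log2 fold change in KO cells, in a list of 27 genes written after the values of some of them had been seen, so that its counts are a description. All 27 were tested, and 14 had an interaction (51.9%, compared with 17.4% of all genes tested), 13 of them higher in KO cells. The median interaction of the list was 0.29, compared with -0.02 over all genes. By form, 5 were stronger rises (Bax, Bbc3, Fas, Gdf15 and Plk2), 3 weaker falls (Ddit4, Sesn2 and Trp53inp1) and 5 reversals (Perp, Phlda3, Plk3, Pmaip1 and Tnfrsf10b), and Xpc was the only stronger fall. The call of Bax was lost when any 1 of 8 libraries was left out (adjusted p = 0.0572 to 0.102), that of Xpc when any 1 of 10 was (0.0587 to 0.171), with DESeq2 (0.0762) and with the replicate block (0.065), and that of Plk2 in the 3 fits on TPM (0.108 to 0.126). Plk3, a stress kinase, had a mean of 318 normalized counts in WT, 247 in WTL, 92.8 in KO and 195 in KOL (interaction 1.43, SE 0.19). The interactions of Mdm2 (-0.01, SE 0.09), Cdkn1a (0.22, SE 0.13), Ccng1 (0.24, SE 0.12) and Zmat3 (-0.06, SE 0.10) did not pass. Trp53 itself had an interaction of -0.12 (SE 0.10).

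Inhibitory and paired receptors, a list of 22 genes also written after some values had been seen, had 14 interactions (63.6%, compared with 17.4% of all genes tested). Of these, 6 were reversals, a form held by 1.43% of all genes tested. Pilra, Pilrb1, Pilrb2, Pirb and Clec4a1 rose with LPS in WT and fell in KO. Pirb had 4621, 4884 and 4748 normalized counts in WT, 6352, 5663 and 5127 in WTL, 6855, 6972 and 7230 in KO, and 4150, 5091 and 4054 in KOL. Without LPS all KO libraries exceeded all WT libraries, and with LPS all KOL libraries fell short of all WTL libraries. Ceacam1 went the other way (interaction 1.30, SE 0.18). Sirpa (0.17, SE 0.10), Cd200r1 (0.13, SE 0.13) and Lilrb4a (-0.23, SE 0.20) did not pass. Pirb and Lilra6 lie in a family of close copies.

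Gm10335, a predicted gene, had the largest fitted interaction among the stronger rises under the limits on calls and counts given for Thbs1. It had 191, 147 and 0 normalized counts in WT, 312, 238 and 149 in WTL, none in any KO library, and 253, 270 and 292 in KOL, at least 97.5-fold above KO. Its call was lost with limma on weighted counts (adjusted p = 0.203) and in the 3 fits on TPM (0.144 to 0.156). Its WT replicates ranged from 0 to 191, and reads of such a gene may be shared with copies elsewhere.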
